A study of Mus musculus with 8 samples.

Results

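The replication-dependent histone genes encode the bulk of the linker histone H1 and of the core histones H2A, H2B, H3 and H4. They were taken as the genes whose listed symbol begins with Hist1h, Hist2h, Hist3h or Hist4h and whose mean over the 8 samples was at least 10 normalized counts. This gave 40 of the 63 genes with such a symbol, out of 22829 genes listed. By class, 5 of 5 H1 genes, 11 of 17 H2a genes and 10 of 17 H2b genes were kept. So were 4 of 11 H3 genes and 10 of 13 H4 genes. Those not kept include annotated pseudogenes, Hist1h2aj and Hist1h2al in H2a and Hist3h2bb-ps in H2b. Just above the limit were Hist1h2ak with a mean of 10.2, Hist2h2bb with 10.7 and Hist4h4 with 11.1, and just below it were Hist1h4j with 9.64, Hist1h3i with 9.56 and Hist1h4n with 9.07.

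RNA seq was performed on CD4+ T cells of ROR-γt-/- mice. The cells had been purified from spleen with magnetic beads, given WT-ROR-γt or its mutant K187R-ROR-γt by a lentivirus, and grown under Th17 polarizing conditions. Both groups therefore lacked the endogenous receptor, and they differed in the form of ROR-γt that was added back. K187R replaces a lysine of ROR-γt, the lineage factor of Th17 cells, with an arginine and makes it SUMOylation-defective. There were 4 samples of each group, called WT and K187R, and the age of the mice was not given in the sources used here. The labels do not say whether the replicates came from separate mice or cultures, so p-values measure the spread between these samples, which may be technical. They also do not say how many cells carried the virus or how many copies they held.

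Replication-dependent histone genes lie in clusters, and many H2a and H2b genes sit head to head and share the stretch between their starts. They are transcribed mainly in S phase, when new DNA has to be packed into nucleosomes. Unlike other mRNAs, their transcripts usually end just after a conserved stem-loop, which is bound by the stem-loop binding protein SLBP, and carry no poly(A) tail. Some of these genes also give longer, polyadenylated transcripts, which are known from differentiated cells. The study's methods describe poly-A enriched libraries, whereas the labels name total RNA and another library kit. In a poly-A enriched library, polyadenylated histone transcripts are the ones expected to be retained, so levels given here are levels in these libraries and not those of all histone mRNA.

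The gene positions are those of GRCm38 with GENCODE M21. Of the 40 genes, 32 lie on chromosome 13, 5 on chromosome 3, 2 on chromosome 11 and 1 on chromosome 6, and 38 have a single exon. A stem-loop of 16 bases was found after the stop codon of an annotated transcript in 27 of them, and the other 13 had none in theirs. The search was for the histone stem-loop on the transcript strand, with the forms listed here and others that swap a pyrimidine or a purine at the same positions, so a stem-loop of another form, or one past the annotated end, was not found. The stem-loop is printed because it sets this family apart from other genes, with the loop of 4 bases in capitals and the stem in lower case. It was read from the annotated transcripts, in the DNA alphabet and from 5′ to 3′. The first form was found in 18 genes of classes H1, H2a, H2b and H3, the second in Hist2h2ac alone, the third in 6 H4 genes, and the last in the H4 genes Hist1h4i and Hist2h4.
H1, H2a, H2b and H3 form: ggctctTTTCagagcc
Hist2h2ac form: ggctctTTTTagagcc
H4 form: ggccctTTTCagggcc
Hist1h4i and Hist2h4 form: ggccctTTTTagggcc
The H4 forms therefore differ from the others in the stem, and the loop ended in T instead of C in 3 genes. The stem-loop began 21 to 54 bases after the stop codon. In the annotation between 3 and 4884 bases followed it, with a median of 169. In Hist1h2ac it lies at chr13:23683477-23683492 on the minus strand and is followed by 2010 annotated bases, whereas in Hist1h4m, at chr13:21812129-21812144 on the plus strand, it is followed by 3.

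The 250 bases before the start were available from RefSeq, on GRCm38.p6, for 36 of the 40 genes. The letters CCAAT, on either strand, were present in 28 of these 36 windows (77.8%) and in 33.8% of 32851 RefSeq promoters of the same length. They were in 26 of 27 windows of H1, H2a, H2b and H3 genes and in 2 of 9 windows of H4 genes. The letters TATAAA, on the strand of the gene, were in 15 of 36 windows (41.7%) and in 7.59% of all promoters. The 2 motifs can share 1 base. The RefSeq start lay at most 98 bases from that of GENCODE, except for Hist1h1d, where it lay 1770 bases away. The windows of Hist1h2ac and Hist1h4i are shown, from chr13:23683960-23684209 and chr13:22041363-22041612, both on the minus strand, since they stand for the windows with and without the first motif. Capitals mark both motifs, the first one on either strand. The Hist1h2ac window is also the stretch shared with Hist1h2bc, which is transcribed in the other direction from position 23684199.
Hist1h2ac: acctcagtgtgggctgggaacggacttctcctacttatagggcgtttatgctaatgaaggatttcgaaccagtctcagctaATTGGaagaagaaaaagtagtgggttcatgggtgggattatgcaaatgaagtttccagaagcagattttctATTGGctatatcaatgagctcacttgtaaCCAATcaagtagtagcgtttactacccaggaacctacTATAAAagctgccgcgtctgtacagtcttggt
Hist1h4i: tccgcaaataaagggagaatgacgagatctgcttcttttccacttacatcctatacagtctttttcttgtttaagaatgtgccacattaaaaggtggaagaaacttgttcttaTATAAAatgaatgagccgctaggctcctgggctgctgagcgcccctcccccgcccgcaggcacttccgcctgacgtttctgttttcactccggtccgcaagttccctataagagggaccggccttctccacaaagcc
The Hist1h2ac window held the first motif 3 times and the Hist1h4i window did not hold it.

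A normalized count is the number of reads on a gene divided by the size factor of its sample. The reads on genes numbered 52456804 to 74676721 in a sample, and the 40 histone genes together took 1671 to 3011 of them, which is 0.00319% to 0.00446% of the reads. None of the 320 values was 0, and 1 was at or under 3 reads, the smallest count taken as detectable. The T cell markers Cd4, Cd3e, Cd3g, Trac and Lck were high in all samples, with Cd4 between 15147 and 20882 normalized counts. Markers of other cells were present as well. The summed count of the myeloid markers Lyz2, Itgam, Csf1r and Cd14 was 20026 to 58703 in WT and 34138 to 61756 in K187R. The B cell markers Cd79a and Ms4a1 summed to 372, 560, 362 and 102 in WT and to 641, 627, 559 and 137 in K187R, so that replicate 4 was the lowest of each group and the groups overlapped, and their part in the histone values was not tested. The CD8 markers Cd8a and Cd8b1 summed to 555, 403, 556 and 1025 in WT and to 477, 387, 403 and 1141 in K187R. Replicate 4 was the highest of each group for these and for the myeloid markers, and their part in the histone values was not tested. The NK markers Ncr1 and Klrb1c summed to 1.74 to 24.0 in WT and to 5.33 to 30.5 in K187R. Clustering over the 16942 other genes put WT replicates 1 and 3 with K187R replicate 1, WT replicate 2 with K187R replicates 2 and 3, and WT replicate 4 with K187R replicate 4. These sets come from the data and not from the labels, and each holds samples of both groups.

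Per kb of exon, the histone genes were low in these libraries. Their median level was 35.0 normalized counts per kb, which 23.4% of 16958 tested genes with a known length fell below, whereas the median of all those genes was 253. The levels ranged from 3.88 in Hist4h4 to 258 in Hist2h2be. Next to Hist2h2be came Hist1h1c with 217, Hist1h4i with 149, Hist1h2bc with 118, Hist3h2a with 114 and Hist3h2ba with 113. The class medians were 35.7 for H1, 33.7 for H2a, 33.7 for H2b, 26.1 for H3 and 46.1 for H4. By contrast, the replacement histone genes H3f3b, H3f3a and H2afz were far higher, with 10341, 3224 and 4224 normalized counts per kb. Such genes are expressed throughout the cell cycle and give polyadenylated mRNA. Not every histone gene outside the family was high. H2afv had 1309 normalized counts per kb and Cenpa 556, whereas H1fx had 33.3, under the median of 35.0 given above. Exon lengths were those of GENCODE M21, whereas the authors counted on M15. Levels per kb and their order therefore also depend on the annotated ends of the genes. A read that fits several histone genes may be lost or assigned to 1 of them, and how the counting treated such reads is not stated. Of all stretches of 75 bases, the read length, in the exons of a histone gene, a median of 33.2% also occurred in another annotated gene. This counts either strand and any annotated gene, including genes that overlap the histone gene at the same place. In 13 genes 50% or more of them did, and in 4 none did. The count takes single stretches that match exactly, whereas the study's methods describe paired-end reads. It is therefore not the share of reads that was lost. The exons of 15 genes overlapped another gene. The levels of such genes are uncertain.

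To see whether the histone genes changed between cells expressing the 2 forms of ROR-γt, K187R was compared with WT. None of the 40 was called, and the group sums overlapped in every class. The summed count of all 40 genes was 1986, 2623, 2455 and 2624 in WT replicates 1 to 4 and 2567, 2527, 2719 and 2393 in K187R replicates 1 to 4. This is 2422 ± 301 (SD, n = 4) against 2551 ± 134 (SD, n = 4), a ratio of 1.05. WT replicate 1 was the lowest sample, and the other WT samples lay within the K187R range. In such bulk samples, fewer cells that express a gene and less RNA per cell cannot be told apart. In limma, run on log2(normalized count + 1) over 16982 genes with Benjamini-Hochberg adjustment, 0 of the 40 had an adjusted p under 0.05, against 0 of all genes tested (0.0%). At an unadjusted p under 0.05 there was 1 of the 40, against 746 of all genes (4.39%). In edgeR and in DESeq2, 0 histone genes were likewise called (DESeq2 gave an adjusted p to 8 of them) and 1 was at an unadjusted p under 0.05. Over all genes edgeR called 0 and DESeq2 35 (0.206%), with 4.29% and 4.96% at an unadjusted p under 0.05. The median log2 fold change of the 40 genes was -0.11, and 16 of them (against 48.4% of all genes) had a value above 0. For all genes the median was -0.006.

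None of the linker histone genes was called between the groups, which does not show that their levels were equal. The summed H1 count was 438, 525, 620 and 592 in WT and 533, 465, 577 and 590 in K187R, and the groups overlapped. Hist1h1c (chr13:23738808-23740367, plus strand), the most abundant H1 gene here, had 254, 336, 321 and 425 normalized counts in WT and 312, 287, 339 and 437 in K187R. Replicate 4 was the highest of each group. The means were 334 ± 70.3 and 344 ± 65.4 (SD, n = 4), a log2 fold change of 0.05 with a standard error of 0.19. Hist1h1e (chr13:23620629-23622558, minus strand) had 85.6, 95.2, 138 and 80.2 in WT and 117, 87.9, 113 and 81.8 in K187R. Its log2 fold change was 0.02 with a standard error of 0.22, and 25.7% of its exonic bases overlap Gm11398 and Hist1h2be on the same strand. Both values are small beside their standard errors, and their sign turned under other settings. Hist1h1a, Hist1h1b and Hist1h1d had log2 fold changes of -0.05, -0.23 and -0.12.

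**Figure D1:**
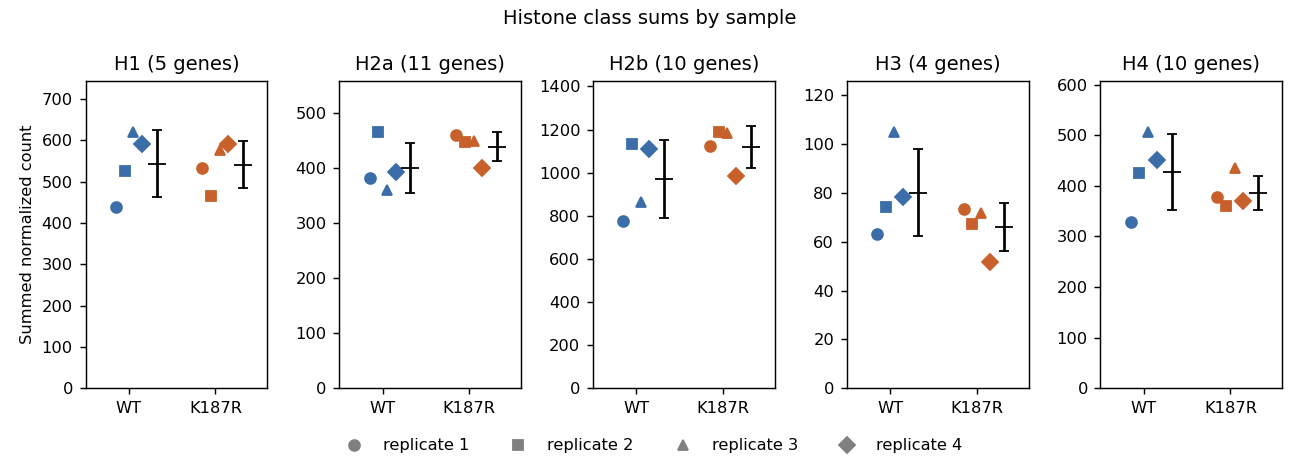
Summed normalized counts of the histone genes of each class, 1 point per sample, with the mean and SD of each group (n = 4) as a bar beside the points and a vertical axis that starts at 0. The 2 groups overlapped in all 5 classes, with WT sums of 775 to 1133 and K187R sums of 982 to 1188 for H2b.

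Among the H2a genes the clearest difference was that of Hist1h2ac (ENSMUSG00000069270, chr13:23681467-23683948, minus strand), a single-exon gene with 2058 annotated bases after its stop codon. It had 8.32, 10.6, 7.61 and 16.6 normalized counts in WT and 18.1, 17.4, 22.1 and 25.8 in K187R. All 4 K187R samples lay above all 4 WT samples, with WT replicate 4 close to K187R replicate 2. The means were 10.8 ± 4.06 and 20.8 ± 3.91 (SD, n = 4), and the log2 fold change was 0.93 with a standard error of 0.31. The unadjusted limma p was 0.0130 and the adjusted p 0.921. The unadjusted p was 0.0150 in edgeR, 0.0446 in DESeq2 and 0.0952 in DESeq2 with the replicate block. DESeq2 gave this gene no adjusted p in either fit. The exact two-sided permutation p was 0.0286, the smallest that 4 samples against 4 allow. Over the alternatives the log2 fold change was between 0.73 and 1.145, and the adjusted p, where one was given, was at least 0.269. With the sample set as a factor it was 0.87 (adjusted p = 0.404 from limma). Across all genes, 417 of 16982 (2.46%) had groups that did not overlap, 249 of them (1.47%) with K187R higher, and Hist1h2ac was the only such gene among the 40 (1 of 40). At this low count the SD within groups was about that of counting error, with 25.2% against 25.2% of the mean, and 11.1% of its stretches of 75 bases occur in other genes.

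Hist3h2a (chr11:58954685-58956830, plus strand), the H2a gene with the highest level per kb, had 200, 285, 171 and 237 in WT and 268, 286, 253 and 255 in K187R. The K187R samples lay close together, with WT replicate 2 among them. Its log2 fold change was 0.27 with a standard error of 0.17 (adjusted p = 0.921 from limma). Its exon overlaps Trim17 and Gm44313, with 33.0% of its bases covered on the same strand and 6.43% on the other. Hist1h2ao (chr13:21810465-21810944, plus strand) had 53.5, 48.1, 37.2 and 32.2 in WT and 59.9, 29.3, 34.8 and 24.9 in K187R. The groups overlapped over their whole range, with a log2 fold change of -0.25 and a standard error of 0.31, and 93.1% of its stretches of 75 bases occur in other genes. The other 8 H2a genes had log2 fold changes between -0.53 in Hist1h2ae and 0.22 in Hist2h2ac. For the class as a whole the summed count was 381, 465, 361 and 392 in WT and 461, 447, 449 and 400 in K187R, a ratio of 1.10. Without Hist3h2a, which took most of the reads, the log2 ratio went from 0.13 to -0.03.

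The H2b genes held the most counts of all classes. The summed count was 775, 1133, 863 and 1111 in WT and 1122, 1188, 1186 and 982 in K187R, with means of 971 ± 179 and 1119 ± 96.4 (SD, n = 4). WT replicates 1 and 3 were below all K187R samples, and WT replicates 2 and 4 were within their range. Hist2h2be (chr3:96221119-96223738, plus strand) alone had 501, 736, 509 and 701 in WT and 731, 829, 801 and 605 in K187R. The same WT replicates 1 and 3 were low. The means were 612 ± 124 and 741 ± 99.9 (SD, n = 4), a log2 fold change of 0.29 with a standard error of 0.16 (adjusted p = 0.921 from limma). None of its stretches of 75 bases occurs unchanged in another annotated gene, so a read that matches it exactly fits no other gene exactly. WT replicates 1 and 3 belong to the same sample set, and with the set as a factor its log2 fold change was 0.19 (adjusted p = 0.771 from limma).

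Hist1h2bc (chr13:23684199-23692908, plus strand), which has 2 exons in the annotation, had 80.8, 157, 87.1 and 190 in WT and 155, 116, 118 and 190 in K187R. WT replicates 1 and 3 were again the lowest, and replicate 4 of both groups was the highest. Its log2 fold change was 0.23 with a standard error of 0.31. The myeloid marker sum was also low in WT replicates 1 and 3, with 20026 and 20100, against 34138 or more in each of the other samples, and its part in the values of Hist2h2be and Hist1h2bc was not tested. Hist3h2ba (chr11:58948920-58949533, plus strand) had 65.4, 80.8, 43.1 and 61.9 in WT and 77.9, 78.1, 75.8 and 72.0 in K187R. WT replicate 2 was above all K187R samples and the other WT samples were below them. Its log2 fold change was 0.30 with a standard error of 0.21. The other 7 H2b genes had log2 fold changes between -0.44 in Hist1h2bb and 0.26 in Hist2h2bb. All stretches of 75 bases of Hist2h2bb are shared, with 2 other genes in all. Its exon overlaps Gm20628 and Gm42743, and 100% of its bases are covered on the other strand.

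The few H3 genes kept were low in all samples. Their summed count was 63.0, 74.0, 105 and 78.4 in WT and 73.4, 67.2, 71.6 and 51.6 in K187R, a ratio of 0.824. WT replicate 3 was the highest sample and K187R replicate 4 the lowest. Hist1h3c (chr13:23744973-23745602, minus strand) had 21.4, 32.7, 36.4 and 11.3 in WT and 19.2, 18.4, 25.3 and 8.0 in K187R, a log2 fold change of -0.48 with a standard error of 0.44. Hist1h3a (chr13:23761853-23762386, minus strand) had 19.0, 12.5, 26.2 and 17.4 in WT and 15.8, 7.59, 17.9 and 9.78 in K187R, a log2 fold change of -0.55 with a standard error of 0.35. In both genes the groups overlapped and the adjusted p from limma was between 0.921 and 0.923. Hist1h3e had a log2 fold change of -0.19 and Hist2h3c2 one of 0.25, so the 4 genes did not all lean the same way.

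The H4 genes also overlapped between the groups. Their summed count was 328, 425, 506 and 451 in WT and 377, 360, 435 and 369 in K187R, a ratio of 0.902. Hist1h4i (chr13:22040636-22041362, minus strand), the H4 gene with the highest level per kb, had 116, 127, 129 and 94.98 in WT and 104, 97.6, 95.9 and 101 in K187R. WT replicates 1 to 3 were above all K187R samples, and WT replicate 4 was below them. The means were 117 ± 15.5 and 99.7 ± 3.64 (SD, n = 4), a log2 fold change of -0.22 with a standard error of 0.16 (adjusted p = 0.921 from limma). Hist1h4b (chr13:23757013-23757409, plus strand) had 30.9, 38.5, 48.2 and 27.9 in WT and 24.9, 31.5, 32.7 and 19.6 in K187R. The groups overlapped, with a log2 fold change of -0.41 and a standard error of 0.27. Of its exonic bases, 56.2% overlap 4930558J22Rik on the other strand, and whether the counting used the strand is not stated. Hist1h4m (chr13:21811746-21812147, plus strand) had 10.7, 20.2, 16.9 and 28.8 in WT and 12.4, 10.8, 10.5 and 15.1 in K187R. The groups overlapped here too, with a log2 fold change of -0.54 and a standard error of 0.33, and 89.0% of its stretches of 75 bases occur in other genes. The other 7 H4 genes had log2 fold changes between -0.39 in Hist4h4 and 0.26 in Hist2h4.

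**Figure D2:**
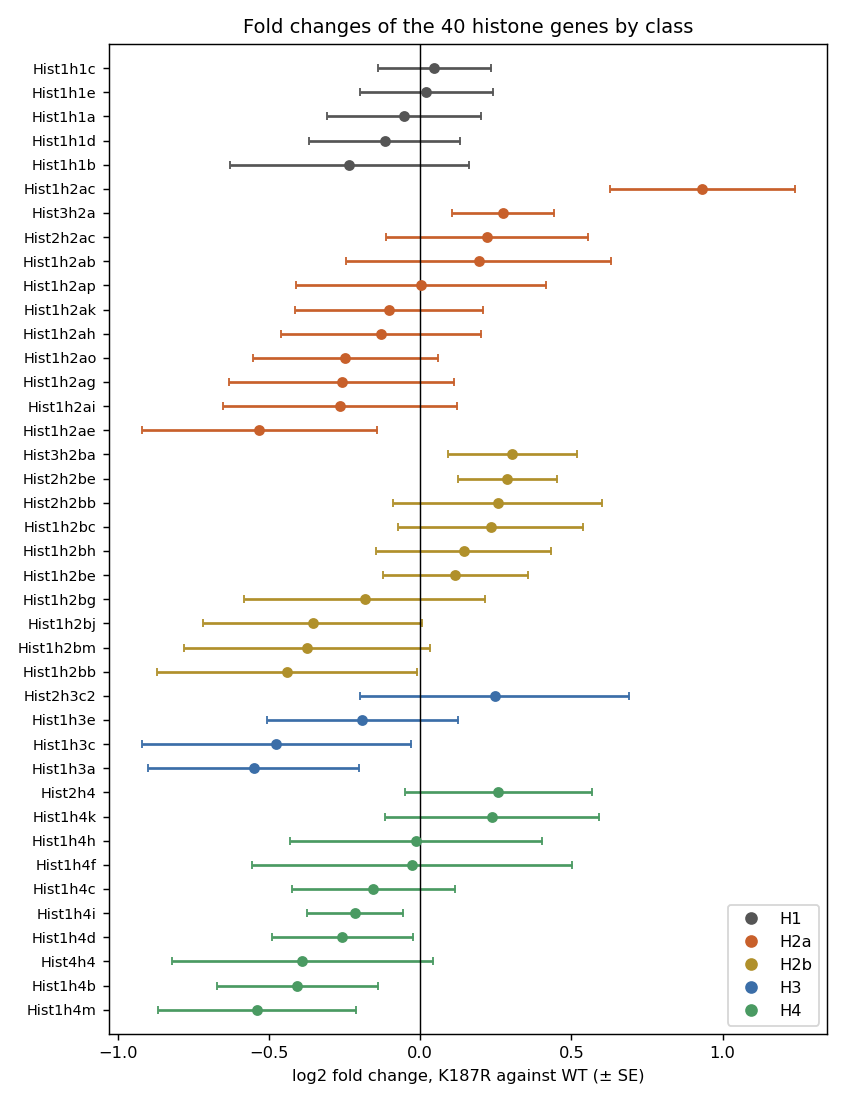
Log2 fold change of K187R against WT for each of the 40 histone genes, with the standard error from limma as a horizontal bar and colours for the 5 classes. Hist1h2ac, at 0.93, stands farthest from 0, and 16 of 40 genes lie above 0.

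The order of the samples differed from gene to gene, as the map of deviations shows. WT replicate 3 was the highest sample in 19 of the 40 genes and K187R replicate 4 the lowest in 14. The median deviation of a gene from its own mean was 0.41 on the log2 scale in WT replicate 3 and -0.26 in K187R replicate 4, while in the other samples it was between -0.22 and 0.21. Leaving out WT replicate 3 took the median log2 fold change of the 40 genes from -0.11 to 0.03. Within groups the SD of a gene was between 10.4% and 72.5% of its mean, with a median of 31.3%, whereas counting error alone would give a median of 22.2%. The variance within groups was less than 2 times that of counting in 15 of the 40 genes, and its median ratio to that of counting was 2.22.

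**Figure D3:**
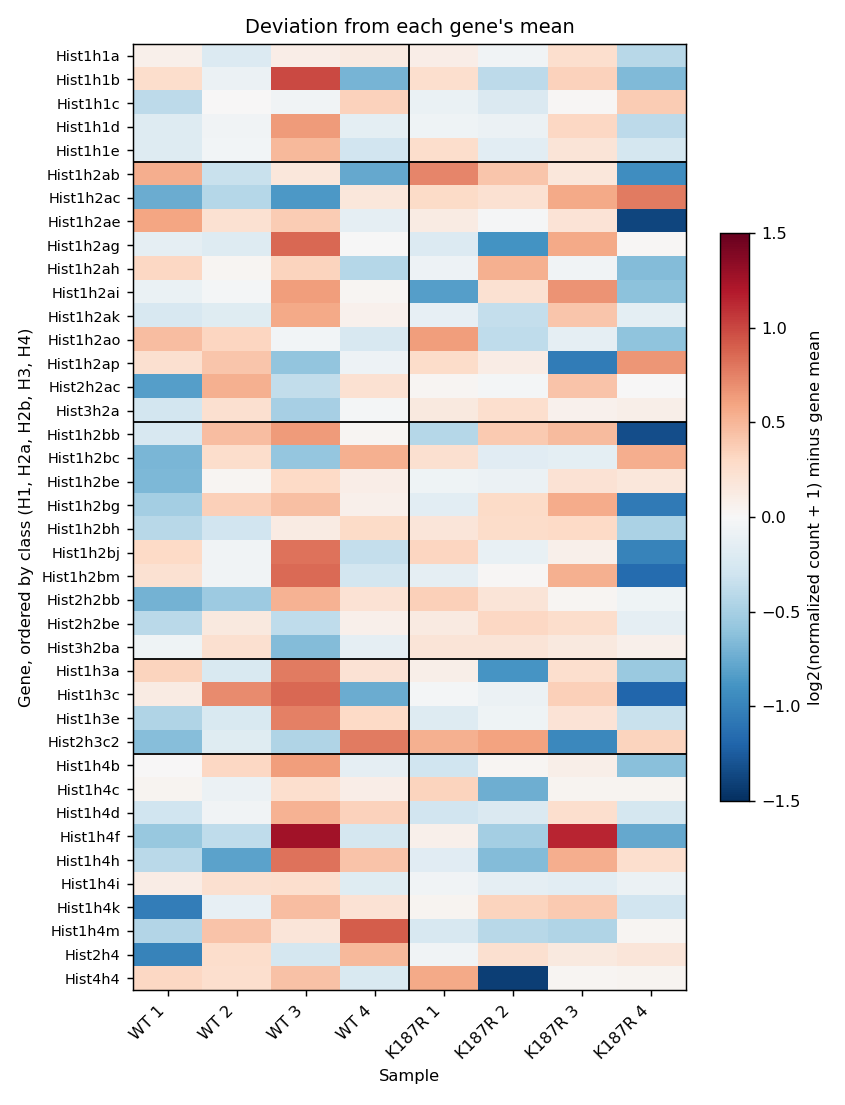
Deviation of each histone gene in each sample from the gene's mean over the 8 samples, as log2(normalized count + 1), with genes ordered by class and red above the mean. WT replicate 3 was the highest sample in 19 genes and K187R replicate 4 the lowest in 14.

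The genes were also grouped by how many bases the annotation places after the stop codon, a limit of 500 bases being chosen after the values were seen. The 13 genes with 500 bases or more are Hist1h1c, Hist1h1d, Hist1h1e, Hist1h2ac, Hist3h2a, Hist1h2bc, Hist1h2be, Hist1h2bh, Hist2h2be, Hist1h4c, Hist1h4d, Hist2h4 and Hist4h4. Together they had 1366, 1946, 1629 and 2021 normalized counts in WT and 1914, 1924, 2014 and 1898 in K187R. The K187R samples lay close together and within the range of the WT samples. The 27 genes with fewer bases had 619, 677, 826 and 603 in WT and 653, 603, 705 and 495 in K187R. Here WT replicate 3 was the highest and K187R replicate 4 the lowest sample, as they were in 15 and 12 of the 27 genes. The log2 fold change was above 0 in 9 of the 13 longer genes, with a median of 0.12, and in 7 of the 27 shorter ones, with a median of -0.19. Of all genes, 48.4% had a value above 0. Of the 11 histone genes with a mean of at least 50, all but Hist3h2ba and Hist1h4i are longer genes. The median of these 11 was also 0.12, with 8 above 0. The grouping was not tested, nor was the part of the level of a gene in it. Without WT replicate 1 the median of the longer genes became -0.04, with 5 of 13 above 0, and without WT replicate 3 that of the shorter genes became -0.04, with 11 of 27 above 0.

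**Figure D4:**
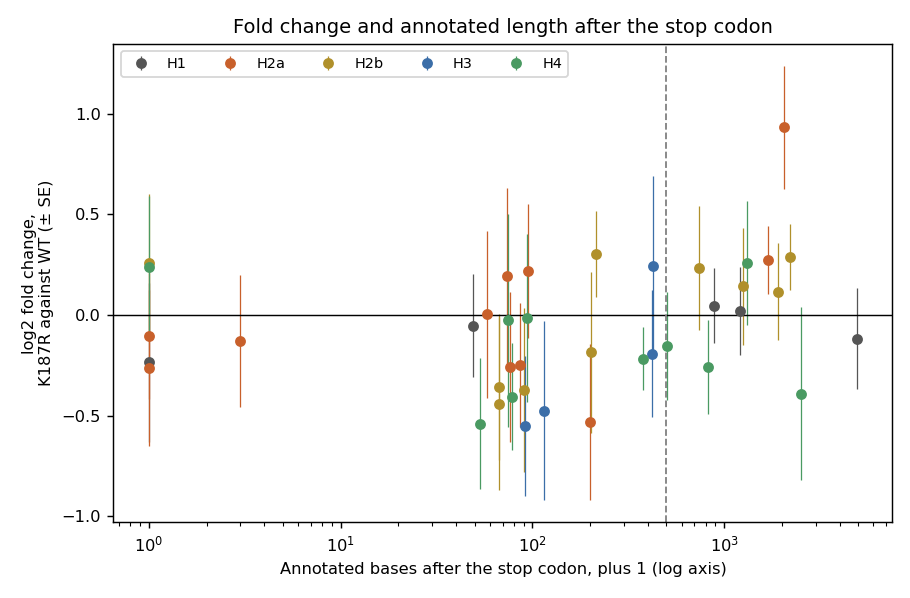
Log2 fold change of K187R against WT (± standard error from limma) of the 40 histone genes, plotted against the annotated bases after the stop codon plus 1 on a log axis, with a dashed line at 500 bases. To the right of the line 9 of 13 genes lie above 0, and to the left of it 7 of 27 do.

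Where an H2a and an H2b gene are divergent, with starts at most 500 bases apart, their levels could be compared within each sample. There were 4 such pairs in which both genes were kept. Hist1h2ac and Hist1h2bc start 251 bases apart, and Hist1h2bc had 20.9, 31.8, 24.6 and 24.6 times the level per kb of Hist1h2ac in WT and 18.4, 14.4, 11.5 and 15.8 times in K187R. The ratio was lower in all 4 K187R samples, and as it contains Hist1h2ac it is not independent of the difference given above. Its size also depends on the annotated exon lengths, 2482 bases for Hist1h2ac and 1156 for Hist1h2bc. Before division by length, the mean normalized counts over the 8 samples were 15.8 and 137. Hist2h2be had 10.5, 5.63, 7.47 and 6.66 times the level per kb of Hist2h2ac, 239 bases away, in WT and 8.03, 9.48, 6.56 and 6.75 times in K187R. Hist1h2ag and Hist1h2bj, 270 bases apart, and Hist1h2ae and Hist1h2bg, 176 bases apart, were more alike, with H2b to H2a ratios of 0.611 to 2.30 and 0.456 to 1.34 over the 8 samples. The groups overlapped in the last 3 pairs.

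**Figure D5:**
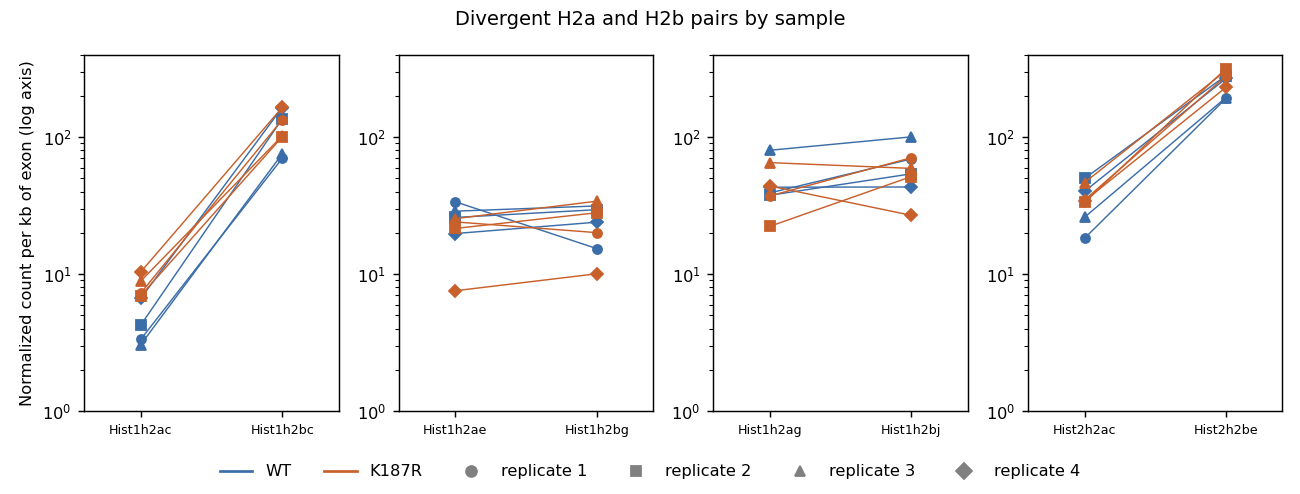
Levels of the 4 divergent H2a and H2b pairs as normalized counts per kb of exon on a log axis, 1 line per sample, with WT in blue, K187R in orange and a marker for each replicate. Hist1h2bc and Hist2h2be lie far above their H2a partners in all samples, while the partners of the middle pairs have similar levels.

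No gene that acts on histone transcripts, or that is active with them in the cell cycle, had an adjusted p under 0.05 in limma. Limma called 0 of all genes tested (0.0%), so this sets no list apart. Of all genes, 48.4% had a log2 fold change above 0, the share to set beside the counts of each list. Of 23 tested genes of histone transcription and 3′ end processing, 2 had a log2 fold change above 0 and 21 below it, with a median of -0.09, and at an unadjusted p under 0.05 there was 1, near the share of all genes (4.39%). This was Cpsf3, the endonuclease that cuts histone pre-mRNA. Cpsf3 had 5001, 4845, 5297 and 4854 normalized counts in WT and 5600, 5644, 5756 and 5159 in K187R, a log2 fold change of 0.15 with a standard error of 0.07. Slbp had 6316, 5200, 5659 and 3604 in WT and 4564, 4900, 4423 and 4021 in K187R, with a log2 fold change of -0.19 and a standard error of 0.16. Npat, the coactivator of histone gene transcription, had a log2 fold change of -0.09 with a standard error of 0.14. The histone chaperone gene Nasp had one of -0.20 (0.12), Hinfp, which activates H4 genes, one of -0.10 (0.06), and Cdk2 one of -0.11 (0.08). WT replicate 4 was the lowest sample in 13 of these 23 genes.

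Of the 20 genes of DNA replication in S phase, 1 had a log2 fold change above 0 and 19 below it, with a median of -0.15, and of the 12 genes of mitosis 0 were above 0, with a median of -0.27. At an unadjusted p under 0.05 there were 0 in either list. The DNA primase gene Prim1 had a log2 fold change of -0.31 with a standard error of 0.17, and Rfc4, Gins2 and Pcna had values of -0.28, -0.20 and -0.19. Birc5, Ccnb2, Aurkb and Cdk1, genes of cell division, had values of -0.34, -0.30, -0.31 and -0.26. The median deviation of the replication genes from their own means was 0.37 and 0.34 in WT replicates 1 and 3 and -0.40 and -0.32 in replicate 4 of WT and K187R. In WT replicate 1 the 27 shorter histone genes had a median deviation of -0.06 and in WT replicate 4 of -0.008, close to 0 in both. In WT replicate 3 (0.52) and K187R replicate 4 (-0.56) the shorter histone genes deviated in the same direction as the replication genes. In K187R replicate 3 the shorter histone genes were at 0.25 and the replication genes at 0.04. Both groups of genes were between -0.05 and 0.03 in WT replicate 2 and K187R replicates 1 and 2. The part of cycling cells in the histone values was not tested.

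Of 10 tested genes of replacement and other histones, 3 had a log2 fold change above 0 and 7 below it, with a median of -0.08. At an unadjusted p under 0.05 there was 1 of the 10, against 4.39% of all genes. This was Cenpa, the gene of the centromeric H3 variant, with 3818, 3293, 4007 and 3195 in WT and 2711, 3097, 3390 and 2570 in K187R, a log2 fold change of -0.28 and a standard error of 0.11 (adjusted p = 0.921 from limma). WT replicates 2 and 4 lay within the range of the K187R samples. H2afv had a value of -0.23 (0.11), H1fx one of 0.56 (0.41), H3f3b one of -0.09 (0.08), H2afz one of -0.12 (0.11) and H3f3a one of -0.08 (0.12), each with its standard error. Of 8 tested genes of poly(A) tail addition and the nuclear exosome, 1 had a log2 fold change above 0 and 7 below it, with a median of -0.06 and 0 at an unadjusted p under 0.05. Pabpn1, the nuclear poly(A) binding protein gene, had a value of -0.10 (0.12), and Exosc10 one of 0.06 (0.08). Zcchc7 had one of -0.06 (0.09) and Skiv2l2 one of -0.07 (0.10).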

How the data were processed

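Cutadapt, HISAT2 on GRCm38, featureCounts with GENCODE M15 and DESeq2 were the tools of the authors for trimming, alignment, counting and normalization. Tool versions are not given in the sources used here. Each deposited value is a signal, reads on a gene over a size factor, and 100% of them were whole reads within 0.01 of a read. The reads were recovered from them. Differences were tested with limma (lmFit, eBayes with trend) on log2(normalized count + 1) over genes with a mean of at least 10, with Benjamini-Hochberg adjustment and a threshold of 0.05. Single values were compared by an exact two-sided permutation of the 70 regroupings. edgeR's quasi-likelihood test and DESeq2 on recovered reads, other pseudocounts, filters and scalings, the replicate block, the sample set and samples left out were alternatives. The same alternatives for genes grouped by bases after the stop codon were chosen after seeing the data.

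The genes and lists were chosen with earlier results of these data known. Given in full are the 2 genes of each class with the highest level per kb and the 4 with the smallest limma p in each direction, and up to 4 genes of each other list by smallest p, with H2afz, H3f3a, H3f3b, Slbp and Npat in any case. The limma script was tested on simulated data of 16982 genes with 200 changed by 4-fold, of which it recovered 97.5%. The floor of 3 reads, which concerns counting error alone, is 2.54 to 3.56 normalized counts. Tests ran in DESeq2 1.42.0, edgeR 4.0.16 and limma 3.58.1 under R 4.3.3, and summaries and plots in pandas 2.3.3, numpy 2.4.6 and matplotlib 3.10.9 under Python 3.11.15. Some results are left out of the text.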

Additional observations from a re-analysis of the deposited data

Results flagged for a closer look

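In 6 of the 90 groups of 4 samples examined (the 40 genes and the 5 class sums in WT and in K187R), 1 sample stood far from the others by Dixon's test, where chance gives about 1 in 20 groups, or 4.5. In WT this was replicate 3 each time. Hist1h1d had 93.9 normalized counts there against 52.3 to 57.7 in the other WT samples, Hist1h2ag had 38.9 against 18.3 to 20.9, Hist1h2ai had 20.3 against 11.9 to 13.1, and Hist1h4f had 32.1 against 8.32 to 10.5. In K187R it was replicate 3 each time, with 24.2 against 17.4 to 18.1 for Hist2h2ac and 85.3 against 58.7 to 61.8 for Hist1h4d.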

How the results depend on the processing

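Under all 21 alternatives 0 histone genes were called. Over all genes limma called 0, DESeq2 35, DESeq2 with the replicate block 189, limma with the sample set 1, and the fits without a sample 0 to 4, the 4 without WT replicate 4. DESeq2 gave no adjusted p to 32 of the 40 histone genes, and the lowest of the other 8 was 0.916. The median log2 fold change of the histone genes, -0.11, was -0.24 under quantile normalization, 0.12 over the 11 genes whose mean reached 50, and -0.20 to 0.03 without a sample. The log2 ratio of the H2a sums, 0.13, became -0.028 without its member with the most counts, Hist3h2a. The log2 fold change of Hist1h1c turned to -0.039 under quantile normalization, and that of Hist1h1e to -0.10 there and -0.00014 in DESeq2. Without a sample they ranged from -0.076 to 0.17 and from -0.073 to 0.19. The other 11 genes given in full kept their sign under every alternative in which they were tested. The cause of these moves was not tested, apart from the smaller number of genes at a mean of 50. Samples with the same number correlated by 0.59, 0.66, -0.10 and 0.63 in their deviations, and those numbered 1, 2 and 4 were each other's best match. Number 3 did not pair, the labels name no shared source, and the numbers were not taken as pairs. With the replicate block limma called 0 genes, but 2046 of 16982 were at an unadjusted p under 0.05, against 746 without it. With the sample set there were 1394. In each of these fits 1 of the 40 histone genes was at that p. With the block, limma's adjusted p of the 13 genes given in full ran from 0.408 for Hist1h2ac to 0.968 for Hist1h1e. The log2 fold change of Hist1h2ac was 0.93, and the median of the histone genes was -0.11. Low counts limit what can be seen: counting error alone gave a median SD of 22.2% of a gene's mean.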
